A study of Mus musculus with 12 samples.

Results

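Adding the Runx1 mutation S291fsX300 to blood stem and progenitor cells that lack miR-146a was examined by RNA sequencing of sorted mouse bone marrow cells. Of the 12 libraries of the study, 6 enter the comparison. The genotype miR-146aKO/Runx1S291fsX300, called the double genotype here, has 3 libraries (A001, A031 and A051). The genotype miR-146aKO, called the knockout here, also has 3 (A047, A150 and A151). Both carry the miR-146a deletion, so that deletion is not compared, and all genes of the count table were considered. The other 6 libraries are 3 of Runx1S291fsX300 (A021, A042 and A058) and 3 of miR-146a wildtype/Runx1 wildtype (A015, A040 and A053). They share in the estimate of the spread, and their levels are given beside results.

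The sorted cells were GFP+ and LSK, which means that they lacked lineage markers and carried Kit and Sca-1. They came from bone marrow of secondary recipients, mice transplanted with cells of the stated genotypes. The word Empty stands in the sample titles of both groups without mutant Runx1, the knockout and the wildtype. The labels do not explain it and do not say how mutant Runx1 was brought into the cells, how old the mice were or how many donors were used. Whether each library is a mouse of its own is not stated either, so the p-values reflect only how far these libraries differ, which may be technical. RNA from few cells was amplified by the NuGEN Ovation v2 kit before Nextera XT library making, and such libraries do not keep the strand.

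RUNX1 is a DNA-binding transcription factor that pairs with CBFB and is needed for definitive blood formation, for lymphocyte and platelet development and for restraint of progenitor growth. Frameshift mutations behind its DNA-binding Runt domain remove the activation domain and are found in myeloid neoplasms. miR-146a is a microRNA induced by NF-kB that represses Traf6 and Irak1, signalling proteins downstream of Toll-like and IL-1 receptors. It so forms a feedback brake on innate immune signalling. The LSK gate holds stem cells and multipotent progenitors, which are expected to lack most products of mature lymphocytes and myeloid cells.

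The mature product missing from both genotypes is shown because its seed (bases 2 to 8, in capitals) is what pairs with target messages. The sequences are from RefSeq, 5′ to 3′, and lie on the minus strand of chromosome 11 in GRCm38.p6, the 5p arm at chr11:43374435-43374456 and the 3p arm at chr11:43374399-43374420.
mmu-miR-146a-5p: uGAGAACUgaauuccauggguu
mmu-miR-146a-3p: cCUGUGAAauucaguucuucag
The gene entry Mir146 held 0 counts in 5 of the 6 libraries and 14 counts in A031, a library labelled as lacking miR-146a. It also held 0 in all 6 libraries that were not labelled miR-146aKO, so these counts do not check the deletion.

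Runx1 itself (chromosome 16, 92601466 to 92826149, minus strand) stood at 120, 259 and 191 CPM (counts scaled to a common library size with edgeR's TMM factors) in the double genotype. In the knockout it stood at 168, 150 and 98.3 CPM. The 2 genotypes overlapped, and the log2 fold change of 0.45 (SE 0.44) did not pass edgeR's quasi-likelihood test (adjusted p = 0.662). Gene counts do not tell the mutant from the normal message, so this level does not check the mutation either.

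Total counts were 4907029 to 6522388 in the double genotype and 3540043 to 4353971 in the knockout. Rn45s, the ribosomal RNA precursor, took 5.71% to 17.8% of them. A chi-square statistic per gene of 41.6 to 194 between pairs of the 6 libraries showed none to be a copy of another. The sex-linked genes differed between libraries of 1 genotype: in A001 the mean of the 4 Y-linked genes was 3.45 CPM and Xist stood at 1814 CPM, against Y-linked means of 24.8 to 60.4 CPM in the other 5. Xist stood at 464 CPM in A151 and at 16.5 to 61.7 CPM in the other 4. The part of sex in the results below was not tested beyond a fit with the Y-linked level as a covariate, which called 3 genes.

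Across the transcriptome, 2 genes passed the threshold (adjusted p under 0.05, edgeR's quasi-likelihood test with Benjamini-Hochberg adjustment), which is 0.0157% of the 12744 tested. Both fell in the double genotype: Cd2, an adhesion receptor of lymphocytes, and Ext2, a glycosyltransferase that lengthens heparan sulfate chains. A further 12 genes had adjusted p-values of 0.05 to 0.06, and 54 stood below 0.10, 22 on the higher side and 32 on the lower side. At an unadjusted p under 0.05 there were 968 genes on the higher side (7.6% of those tested) and 914 on the lower side (7.17%). The median log2 fold change over all tested genes was -0.0093, with 6324 higher and 6415 lower. DESeq2 called 787 genes, 324 higher and 463 lower, and edgeR without its low-count filter called 549.

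**Figure D1:**
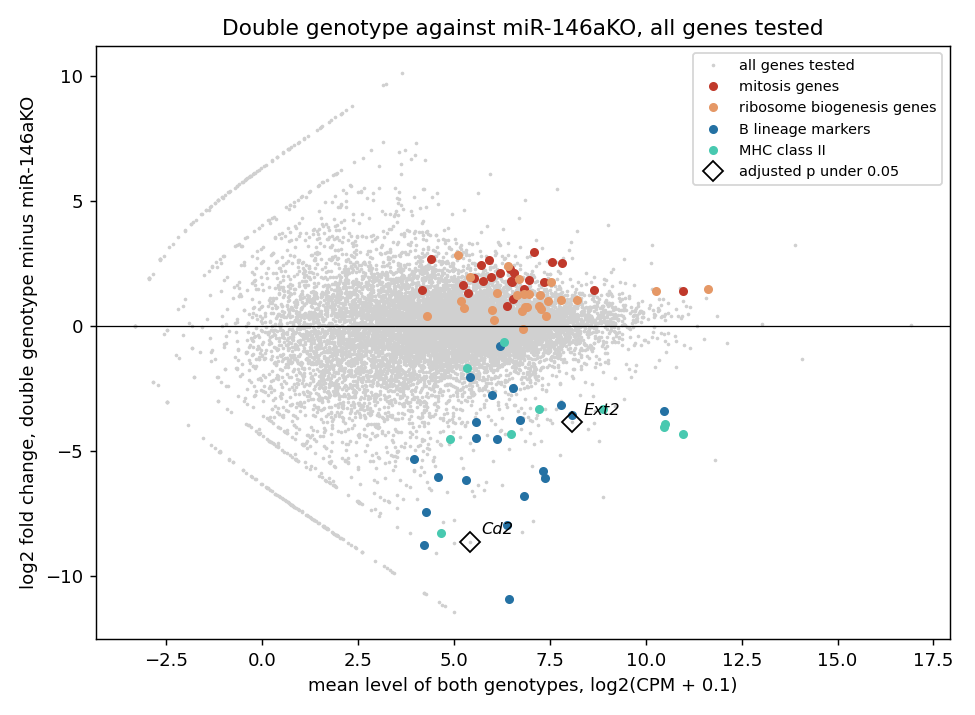
Log2 fold change (double genotype minus knockout, y axis) of each tested gene against its mean level over both genotypes (x axis, log2 CPM with 0.1 added). Diamonds mark Cd2 and Ext2, the 2 called genes, both on the lower side, and colours mark members of 4 gene lists.

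Cd2 (chromosome 3, 101275899 to 101287939, minus strand) stood at 0.172, 0.178 and 0.242 CPM in the double genotype, which is 1 count in each library. It stood at 95.5, 78.4 and 82.8 CPM in the knockout, so the groups were far apart. The fold change on the log2 scale was -8.62 (SE 1.02, adjusted p = 0.00756 by edgeR). Over the group totals of 3 and 966 counts the knockout was higher 439-fold (exact 95% interval 150 to 2131, counting error only, since amplified reads are not independent molecules). Cd2 was low outside the knockout: it averaged 2.07 ± 1.62 CPM (SD, n = 3) in Runx1S291fsX300 and 0.0475 ± 0.0822 CPM in wildtype. The change with the mutation differed between cells without and with miR-146a (interaction log2 -13.41, SE 1.40, adjusted p = 0.00202), the wildtype side of which rests on 1 count or fewer per library. In bulk RNA, fewer cells of a type and less RNA per cell cannot be told apart, here and for the marker genes below.

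Ext2 (chromosome 2, 93661028 to 93822568, minus strand) stood at 34.1, 56.7 and 15.8 CPM in the double genotype. In the knockout it stood at 473, 649 and 405 CPM, and the highest double library lay well below the lowest knockout library. The log2 fold change was -3.84 (SE 0.48, adjusted p = 0.00756 by edgeR). Wildtype averaged 73 ± 8.82 CPM and Runx1S291fsX300 52.2 ± 12.3 CPM, so the knockout stood apart from the other 3 genotypes. The interaction was -3.36 (SE 0.62) and did not pass (adjusted p = 0.137). The gene overlaps Alx4 on the other strand, and without strand their reads cannot be told apart. Both calls were lost without library A001 (adjusted p = 0.10 for each), where the log2 fold changes were -8.54 for Cd2 and -3.81 for Ext2, and Ext2 was not called when only the 6 libraries were fitted.

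The genes next in order are described although none passed the adjusted threshold, and they were taken as the smallest p-values among genes whose libraries did not overlap. Of all tested genes, 1204 (9.45%) had all 3 double libraries above all 3 knockout libraries and 1250 (9.81%) had all 3 below. Member counts in the lists below stand beside these shares, and beside 7.6% higher and 7.17% lower at an unadjusted p under 0.05.

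Bora, an activator of the mitotic kinases Aurora A and Plk1, stood at 49.6, 55.4 and 90.9 CPM in the double genotype against 9.48, 5.57 and 5.6 CPM in the knockout (log2 3.25, SE 0.55, adjusted p = 0.0505 by edgeR). Blm, the helicase mutated in Bloom syndrome, stood at 82, 56 and 43.2 CPM against 4.74, 7.74 and 5.6 CPM (log2 3.32, SE 0.56, adjusted p = 0.0505). Cenpf, a kinetochore protein, stood at 492, 253 and 224 CPM against 59.7, 55.2 and 49.7 CPM (adjusted p = 0.0582). In each of these 3 genes every double library lay above every knockout library, which the rule that chose them required.

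Aspm, which organises spindle poles, Foxm1, a transcription factor that drives the G2/M programme, Gas2l3, a cytoskeletal linker used in cytokinesis, and Mcm10, a replication initiation factor, showed the same order of libraries. Their log2 fold changes were 2.38, 2.97, 2.13 and 3.62, with adjusted p-values of 0.0819 to 0.089. Foxm1 stood at 162, 59.9 and 134 CPM against 11.7, 14.3 and 19.2 CPM. Mcm10 stood at 54.6, 21.7 and 50.7 CPM against 3.48, 1.45 and 5.36 CPM. The other 3 named genes on the higher side were Pxylp1, a phosphatase of proteoglycan synthesis (log2 3.75, adjusted p = 0.0505), Fkbp5, a co-chaperone of the glucocorticoid receptor (2.51, 0.0645), and Hdgf, a nuclear growth factor (1.76, 0.089).

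On the lower side, Ets1, a transcription factor of lymphocytes, stood at 7.58, 5.33 and 22.1 CPM in the double genotype against 186, 261 and 163 CPM in the knockout (log2 -4.13, SE 0.65, adjusted p = 0.0505 by edgeR). Gimap7, a GTPase of the lymphocyte survival family, stood at 0, 0.178 and 0.242 CPM against 98, 41.1 and 51.1 CPM (adjusted p = 0.0505). Gpr183, the oxysterol receptor that guides B cells and dendritic cells, stood at 1.72, 5.33 and 1.21 CPM against 66.1, 102 and 96.4 CPM (adjusted p = 0.0537). Gimap7 was thus nearly silent in the double libraries, with 1 count or none in each. Gpr183 lies within Ubac2 on the other strand. Gimap7 belongs to a cluster of related genes and overlaps the coding entry Gm28053 on the same strand. The reads of both genes are uncertain to that extent.

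Ptprc, which encodes the leukocyte surface phosphatase CD45, stood at 367, 268 and 411 CPM in the double genotype against 1105, 1085 and 1268 CPM in the knockout (log2 -1.72, SE 0.30, adjusted p = 0.0537 by edgeR). Shisa5, a membrane protein of the p53 response, stood at 46, 112 and 187 CPM against 1107, 1187 and 906 CPM (adjusted p = 0.0505). Kbtbd11, Ablim1 and Arhgef18 had log2 fold changes of -3.47, -3.55 and -2.54 (adjusted p = 0.0537, 0.0537 and 0.0739). For Ets1 and Ptprc the knockout was also the group that stood apart from the rest: Ets1 averaged 19.3 ± 9.92 CPM and Ptprc 317 ± 58.5 CPM in wildtype.

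**Figure D2:**
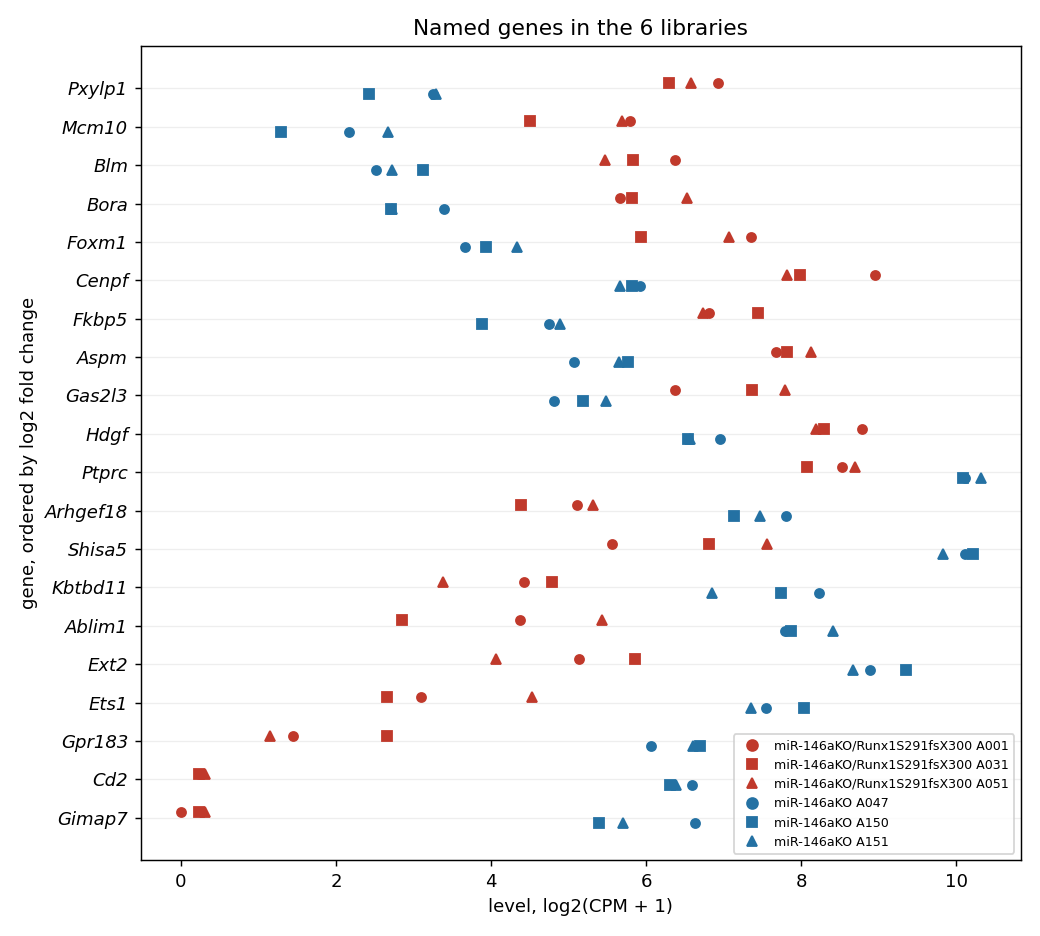
Level (x axis, log2 of CPM plus 1) in each of the 6 libraries for the called genes and the named genes with libraries that do not overlap (y axis). Points are single libraries. The double and knockout libraries fall on opposite sides for every gene shown, which the choice of the named genes required.

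Promoter windows are shown because the added mutation hits a DNA-binding factor. The windows are the 250 bases before the start site in RefSeq on GRCm38.p6, and capitals mark the RUNX core motif searched, TGTGGT or TGCGGT on either strand (printed on the gene's strand, so a match on the other strand reads ACCACA or ACCGCA). The windows lie at chr2:93822569-93822818 (Ext2, minus strand), chr10:89443968-89444217 (Gas2l3, minus), chr2:5012792-5013041 (Mcm10, minus) and chr6:48718371-48718620 (Gimap7, plus).
Ext2: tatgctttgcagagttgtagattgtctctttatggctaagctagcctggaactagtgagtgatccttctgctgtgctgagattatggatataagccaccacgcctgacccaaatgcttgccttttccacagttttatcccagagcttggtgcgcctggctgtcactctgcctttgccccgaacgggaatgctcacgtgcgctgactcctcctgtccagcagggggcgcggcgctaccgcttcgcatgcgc
Gas2l3: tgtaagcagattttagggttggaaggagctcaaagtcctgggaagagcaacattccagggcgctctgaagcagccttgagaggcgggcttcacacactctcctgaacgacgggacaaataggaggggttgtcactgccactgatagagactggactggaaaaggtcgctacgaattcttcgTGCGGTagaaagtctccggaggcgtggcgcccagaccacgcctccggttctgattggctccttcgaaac
Mcm10: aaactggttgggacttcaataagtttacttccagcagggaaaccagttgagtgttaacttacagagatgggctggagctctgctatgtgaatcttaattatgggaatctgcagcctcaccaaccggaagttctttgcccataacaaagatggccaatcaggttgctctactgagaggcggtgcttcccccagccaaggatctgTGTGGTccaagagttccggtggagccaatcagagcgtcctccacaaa
Gimap7: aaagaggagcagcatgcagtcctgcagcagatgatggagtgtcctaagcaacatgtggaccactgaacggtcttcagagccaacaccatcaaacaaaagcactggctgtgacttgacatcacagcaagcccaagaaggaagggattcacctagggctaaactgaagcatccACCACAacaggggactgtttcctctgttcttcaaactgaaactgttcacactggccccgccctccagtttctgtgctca
The Ext2 window holds neither motif, and the other windows hold 1 match each. Of 20 named genes with separated libraries, 15 have a window in the RefSeq table (Cd2 and Ets1 are named only). A match in at least 1 window was found for 3 of 8 on the higher side (Blm, Gas2l3 and Mcm10). On the lower side it was found for 4 of 7 (Shisa5, Gimap7, Ablim1 and Arhgef18). Shisa5 and Ablim1 have 5 windows each, for different start sites, and the first of each holds no match. Of all 26 windows of the 15 genes, 9 (34.6%) hold a match, a lower share than among the windows printed. Among all promoters of this length 18.6% hold the motif, and 21.1% of tested genes have it in at least 1 promoter. A match is a description of letters only.

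Genes that run mitosis were higher in the double genotype as a group, though none passed the adjusted threshold. All 24 tested members had a higher estimate, 20 of 24 at an unadjusted p under 0.05 (7.6% over all genes), and 20 of 24 had libraries that did not overlap, Cenpf and Gas2l3 among them. The list's median log2 fold change was 1.82. Cenpe, a kinetochore motor, stood at 667, 265 and 213 CPM against 77.4, 47.2 and 75.2 CPM (log2 2.52, adjusted p = 0.103). The list's level (mean log2 CPM of its members) was 7.53, 6.59 and 7.04 in the double genotype and 5.34, 5.20 and 4.90 in the knockout. In Runx1S291fsX300 it was 6.51 to 7.37 and in wildtype 5.49 to 7.14, so the 3 knockout libraries had the lowest mitosis levels of the 12. Leaving out each library in turn kept all 24 higher, with 16 to 24 at an unadjusted p under 0.05.

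DNA replication genes leaned the same way with smaller differences. Of 28 members, 24 had a higher estimate, 4 at an unadjusted p under 0.05 (7.6% over all genes). The median log2 fold change was 0.85. Pole, the catalytic subunit of the leading-strand polymerase, stood at 126, 57.2 and 144 CPM against 33.2, 38.2 and 35.5 CPM (log2 1.61, adjusted p = 0.157). Gmnn, the licensing inhibitor geminin, had a log2 fold change of 1.82 (adjusted p = 0.21). The list's level was 5.42 to 6.06 in the double genotype and 4.73 to 5.14 in the knockout, without overlap. The count of 4 became 2 without A001 and 7 without A031.

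Ribosome biogenesis genes, which make and process ribosomal RNA in the nucleolus, were higher for 26 of 27 members, 15 of them at an unadjusted p under 0.05 and 11 with separated libraries, with a median log2 fold change of 1.04. Rrp12, a ribosome export factor, stood at 46.5, 43.5 and 90.7 CPM against 5.37, 10.6 and 9.49 CPM (log2 2.82, adjusted p = 0.0955 by edgeR). Ncl, the nucleolar protein nucleolin, stood at 6168, 2958 and 4893 CPM against 2312, 1284 and 1402 CPM (log2 1.49, adjusted p = 0.115). For both genes every double library lay above every knockout library. Dkc1, the pseudouridine synthase dyskerin, had a log2 fold change of 1.75 (adjusted p = 0.0955). The count at an unadjusted p under 0.05 was 9 without A001 and 9 without A151.

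Cytosolic ribosomal protein genes had small and even differences: 77 of 78 had a higher estimate, at a median log2 fold change of 0.41. Of them, 9 had an unadjusted p under 0.05 (7.6% over all genes) and 29 had separated libraries (9.45% over all genes). Rpl4 stood at 3277, 2752 and 1967 CPM against 1753, 1210 and 1661 CPM (log2 0.79, adjusted p = 0.259). Many of these genes have processed pseudogenes that can share reads, which makes single values uncertain. The 9 genes became 0 without A150, 2 without A001, 4 without A151, 5 without A031 and 18 without A047. Genes of oxidative phosphorylation were higher for 39 of 42, 8 at an unadjusted p under 0.05 (7.6% over all genes), with a median of 0.45. Sdhd, a subunit of complex II, stood at 132, 129 and 242 CPM against 57.5, 53.7 and 76.7 CPM (log2 1.42, adjusted p = 0.129).

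Glycolysis genes were higher for 13 of 17, with 6 higher and 1 lower at an unadjusted p under 0.05. Ldha, lactate dehydrogenase, stood at 967, 557 and 629 CPM against 353, 300 and 242 CPM (log2 1.27, adjusted p = 0.12). Pkm, pyruvate kinase, had a log2 fold change of 1.68 (adjusted p = 0.119). Without A001, 3 members were higher at that p and the list's median was 0.22 in place of 0.77. Myc, a driver of growth and ribosome synthesis that was read here among the immediate early genes, stood at 795, 301 and 1088 CPM against 538, 175 and 216 CPM, and these groups overlapped (adjusted p = 0.301).

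**Figure D3:**
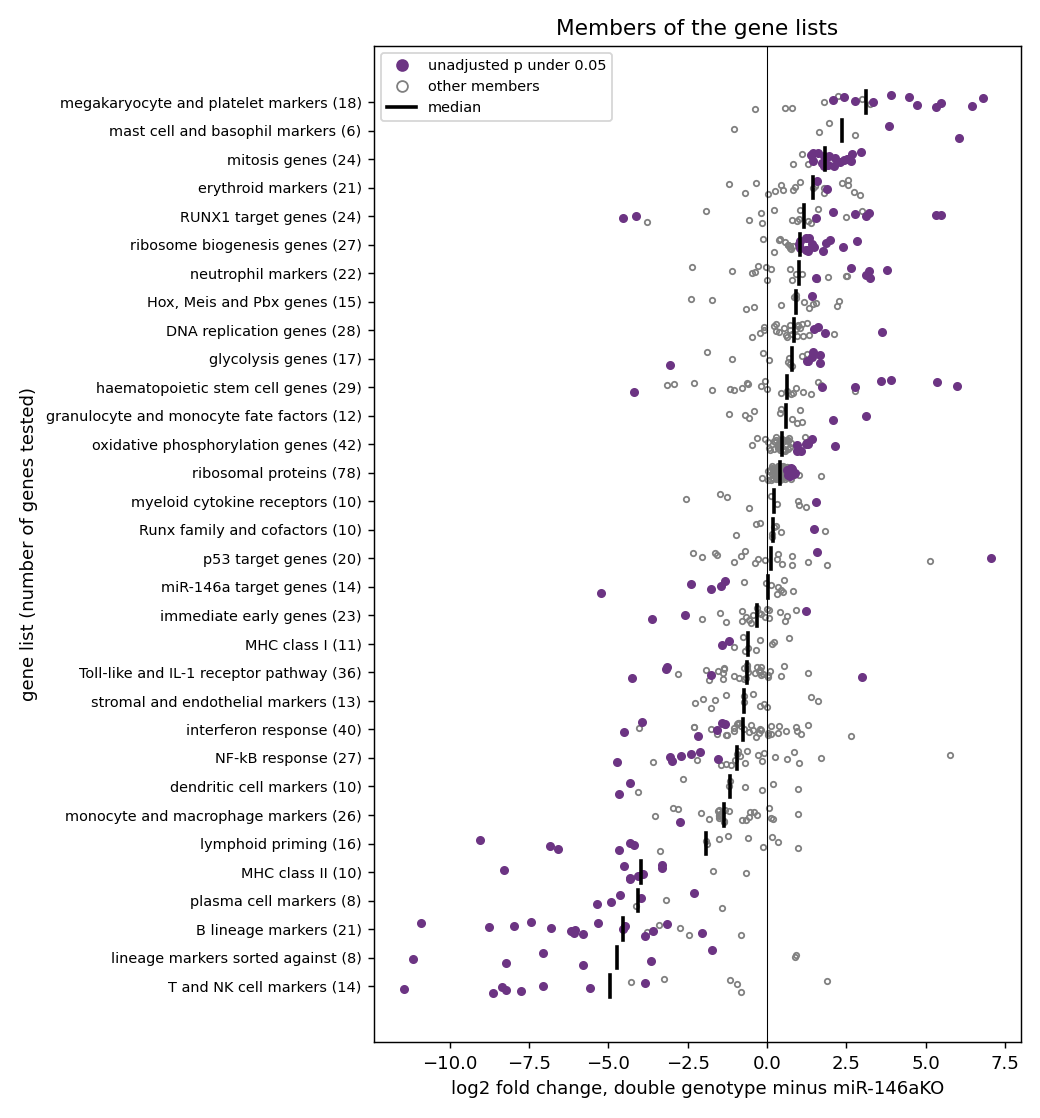
Log2 fold change (double genotype minus knockout, x axis) of each tested member of the gene lists (y axis), with the list median as a black bar. Filled points have an unadjusted p under 0.05. The medians of the growth lists lie right of 0 and those of the lymphocyte and class II lists left of it.

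The markers of the sort itself were uneven. Kit, the stem cell factor receptor, stood at 178, 219 and 164 CPM in the double genotype against 59.7, 47.7 and 24.6 CPM in the knockout (log2 2.09, adjusted p = 0.169 by edgeR). Ly6a, which encodes Sca-1, stood at 18.6, 121 and 12.1 CPM against 1019, 505 and 742 CPM (log2 -3.90, adjusted p = 0.119). Neither passed the threshold, but neither gene's libraries overlapped, and they lay on opposite sides. In wildtype Ly6a averaged 142 ± 87 CPM and Kit 339 ± 111 CPM. Ly6a has close paralogs in the Ly6 cluster, which adds uncertainty to its counts.

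Of the genes of the lineage panel, which the sort was meant to leave out, 8 were tested, and 6 had a lower estimate at an unadjusted p under 0.05 (7.17% over all genes). Cd3e, a CD3 chain of T cells, stood at 0.172, 1.42 and 0.485 CPM in the double genotype against 644, 8.71 and 2.68 CPM in the knockout (log2 -8.24, adjusted p = 0.114), so that its knockout mean rests on A047. The summed CPM of the lineage panel was 324 to 964 in the double genotype, 1974 to 2333 in the knockout, 297 to 553 in Runx1S291fsX300 and 408 to 508 in wildtype. The 3 knockout libraries thus held more of this RNA than any of the other 9. Ptprc, listed for the B220 form of CD45 but expressed by all leukocytes, gave 1085 to 1268 CPM of the knockout sums. The part of lineage-positive cells in the results was not tested.

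B lineage genes lay lower in the double genotype for all 21 tested members, 16 at an unadjusted p under 0.05 and 15 with separated libraries (9.81% over all genes), with a median log2 fold change of -4.53. Spib, a transcription factor of B and plasmacytoid dendritic cells, stood at 0, 0 and 0.242 CPM against 36.7, 323 and 155 CPM (adjusted p = 0.0819 by edgeR). Cd79b, the Ig-beta signalling subunit of B cell receptors, stood at 45.8, 37.3 and 41.9 CPM against 129, 617 and 751 CPM (log2 -3.58, adjusted p = 0.0926). Fcer2a, the low-affinity IgE receptor CD23 of mature B cells, stood at 0.345, 0.355 and 5.58 CPM against 8.85, 398 and 270 CPM (log2 -6.80, adjusted p = 0.103). For both Spib and Fcer2a, A047 was the lowest knockout library. The list's level was 0.47 to 2.54 in the double genotype, 4.49 to 7.55 in the knockout, 0.44 to 3.07 in Runx1S291fsX300 and 0.80 to 1.84 in wildtype.

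Plasma cell genes also had lower estimates throughout (8 of 8, 5 at an unadjusted p under 0.05, median -4.06 on the log2 scale). Jchain, which joins secreted IgA and IgM, stood at 6.03, 208 and 300 CPM against 10503, 2924 and 7649 CPM (log2 -5.36, adjusted p = 0.237). Xbp1, the transcription factor of antibody secretion, stood at 126, 149 and 119 CPM against 1170, 325 and 456 CPM (log2 -2.31, adjusted p = 0.185). Neither gene's libraries overlapped, and A047 was the highest of the 6 for both. The 5 genes became 2 without A001, A051, A047 or A151. The list's level was 1.3 to 5.1 in the double genotype and 7.5 to 8.3 in the knockout. In wildtype it was 0.9 to 5.0 and in Runx1S291fsX300 1.0 to 7.3, with A058 the highest and close to the knockout.

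Of 23 T and NK cell genes, 14 passed the low-count filter, and 13 of those had a lower estimate, 8 at an unadjusted p under 0.05. Cd2 was the member that passed the adjusted threshold. Its knockout levels were even, at 95.5, 78.4 and 82.8 CPM in A047, A150 and A151. Cd3g, a CD3 chain of the T cell receptor, held no count in the double genotype, against 190, 1.69 and 0 CPM in the knockout. With the double group set to a floor of 3 counts in all, it was 276-fold lower (exact 95% lower limit 223-fold, counting error only). The list's median log2 fold change was -4.94, or -4.67 with genes at 0 set to that floor. Its level was 6.46 in A047 but 2.73 and 2.19 in A150 and A151, against 1.00 to 1.61 in the double genotype. Without A047, 1 member was lower at an unadjusted p under 0.05 and the median was -1.35, and without A150 there were 13 such members.

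Lymphoid priming genes, which early lymphoid progenitors switch on, were lower for 13 of 16, 6 at an unadjusted p under 0.05. Dntt, the template-free polymerase of antigen receptor joining, stood at 0.345, 1.78 and 0.485 CPM against 14.2, 73.6 and 174 CPM (log2 -6.59, adjusted p = 0.139). Ikzf3, the B lineage factor Aiolos, stood at 0.172, 22 and 2.42 CPM against 613, 1171 and 1055 CPM (log2 -6.84, adjusted p = 0.154). The double libraries held next to no Dntt, and all of them lay below the knockout for both genes. Rag2, which cuts antigen receptor genes, held no count in the double genotype against 0, 29.3 and 6.82 CPM in the knockout, at least 67.7-fold lower against the floor. Leaving out each library in turn gave 5 to 7 of 16 lower at that p.

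MHC class II presentation genes were lower for all 10 members, 8 at an unadjusted p under 0.05 and 7 with separated libraries, at a median log2 fold change of -3.98. H2-Ab1, a class II beta chain, stood at 42.6, 317 and 182 CPM in the double genotype against 649, 4241 and 3268 CPM in the knockout (log2 -3.91, SE 0.85, adjusted p = 0.0955 by edgeR). H2-Oa, a chain of the class II peptide-loading modulator H2-O, stood at 1.55, 0.711 and 5.33 CPM against 58.8, 49.4 and 64 CPM (log2 -4.51, adjusted p = 0.119). Both genes were lower in every double library, although H2-Ab1 varied several-fold within each genotype. The list's level was 2.80 to 5.05 in the double genotype and 6.16 to 8.96 in the knockout. It was 3.37 to 4.89 in Runx1S291fsX300 and 3.56 to 5.14 in wildtype, so the knockout again held the 3 highest levels. The levels of B lineage markers and of dendritic cell markers were also lower in every double library. Within the knockout, however, A047 had the lowest class II level (6.16) but the highest dendritic level (5.65). Of the dendritic cell markers, 8 of 10 were lower, 2 at an unadjusted p under 0.05 (7.17% over all genes). These 2, Ccr9 and Ly6d, also belong to the lymphoid priming list. Summed dendritic marker RNA was 144 to 534 CPM in the double genotype and 731 to 1099 CPM in the knockout, and the part of either cell type was not tested.

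**Figure D4:**
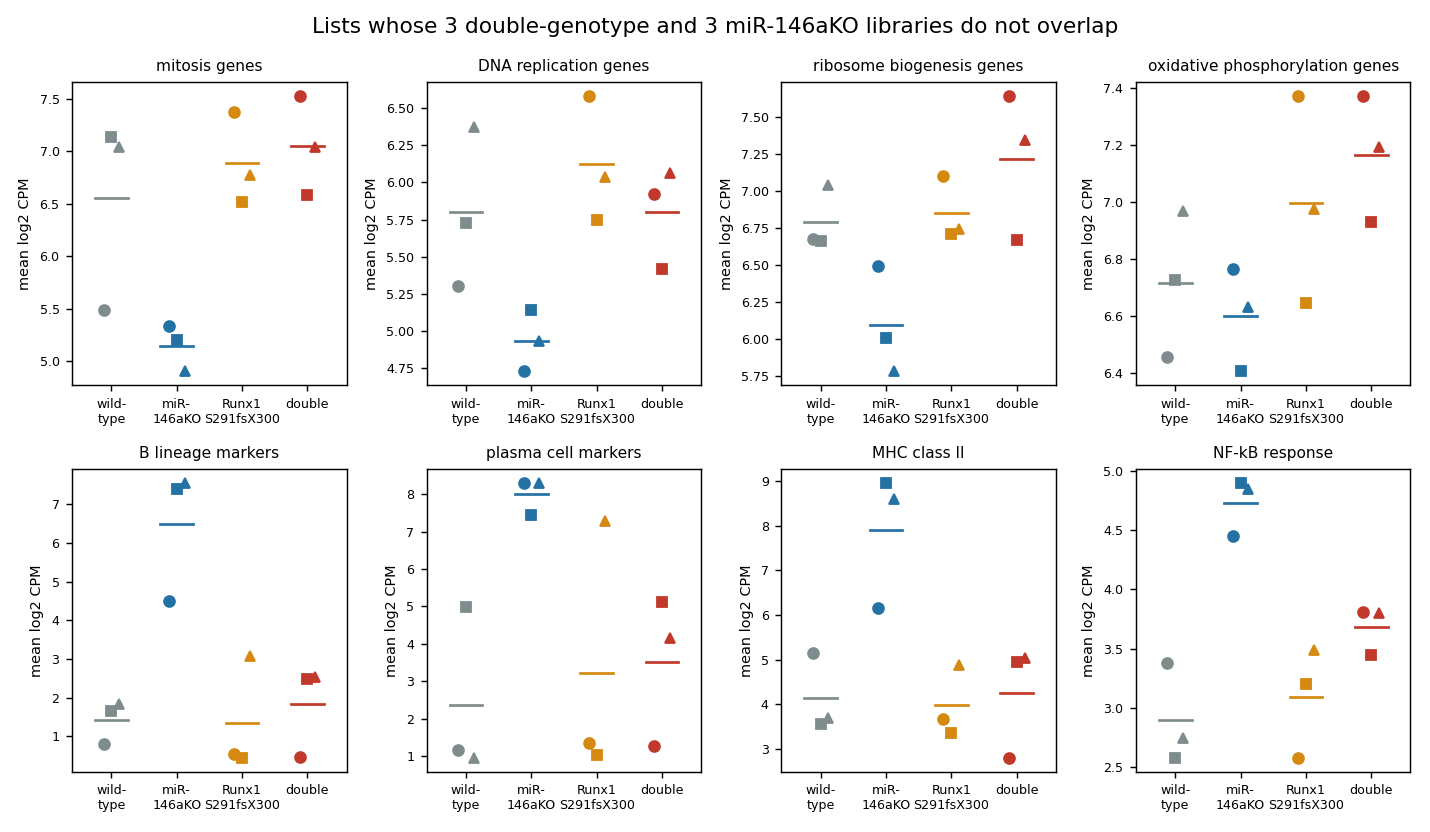
List level (mean log2 CPM, y axis) in each of the 12 libraries by genotype (x axis), with a line at each genotype's mean, for lists whose double and knockout libraries do not overlap. The knockout libraries are at one end of the range for the mitosis, B lineage, class II and NF-kB lists.

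The innate signalling genes that miR-146a normally restrains were read next. Traf6 stood at 115, 189 and 103 CPM in the double genotype against 119, 97 and 66.9 CPM in the knockout (log2 0.52, SE 0.45, adjusted p = 0.615 by edgeR). Irak1 stood at 196, 180 and 171 CPM against 173, 90.3 and 144 CPM (log2 0.42, SE 0.40, adjusted p = 0.649). Irak2, the related kinase, stood at 2.24, 17.9 and 18.4 CPM against 51.5, 33.4 and 47.5 CPM (log2 -1.78, SE 0.82, adjusted p = 0.337). Only for Irak2 of these 3 were the libraries apart. The 14 tested miR-146a target genes divided into 7 higher and 7 lower, with 5 lower at an unadjusted p under 0.05. Notch2, a receptor of lymphoid and marginal zone fate, stood at 79.9, 368 and 335 CPM against 363, 858 and 925 CPM (adjusted p = 0.23). Relb, an NF-kB subunit, stood at 5.17, 3.91 and 9.21 CPM against 59.4, 22.3 and 15.6 CPM (adjusted p = 0.25). Relb was lower in every double library, while Notch2 overlapped. The count of 5 was 1 without A001, 2 without A047 or A150 and 3 without A031, A051 or A151. As a level the list was lower in every double library (5.10, 5.42 and 5.52 against 6.18, 5.82 and 5.74), but its median log2 fold change of 0.04 turned to -0.04 with DESeq2's size factors, so no direction is given.

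NF-kB response genes were lower for 21 of 27, 7 at an unadjusted p under 0.05 and 6 with separated libraries, at a median log2 fold change of -0.94. Nfkbie, an inhibitor that NF-kB induces, stood at 15.3, 11.4 and 9.46 CPM against 53.1, 71.9 and 114 CPM (log2 -2.72, SE 0.59, adjusted p = 0.0955). Nfkb2, the p100 precursor, stood at 2.41, 3.2 and 17.7 CPM against 63.2, 65.8 and 64.3 CPM (log2 -3.06, adjusted p = 0.182). The libraries of Nfkbie and Nfkb2 did not overlap, and Nfkb2 was nearly level within the knockout. Tnfaip3, the ubiquitin-editing inhibitor A20, had a log2 fold change of -2.12 (adjusted p = 0.2). The list's level was 3.45 to 3.81 in the double genotype and 4.45 to 4.90 in the knockout, with 2.58 to 3.49 in Runx1S291fsX300 and 2.58 to 3.38 in wildtype. The count of 7 became 4 without A001 and 4 without A031. Lymphocytes also express many of these genes, and the share of the difference that moves with the lymphocyte markers above was not tested.

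Among Toll-like receptor and IL-1 pathway genes, 29 of 36 members were lower, and 4 lower and 1 higher had an unadjusted p under 0.05, against 7.17% and 7.6% of all genes. Il1r1, the IL-1 receptor, was on the higher side with 48.2, 98.1 and 33.2 CPM against 12.6, 5.81 and 4.14 CPM (log2 2.99, SE 0.84, adjusted p = 0.146). Tlr3, the sensor of double-stranded RNA, was on the lower side with 0.172, 2.84 and 3.15 CPM against 12.6, 30 and 13.1 CPM (log2 -3.17, adjusted p = 0.259). The receptor for IL-1 thus stood opposite to most of its pathway list. The 4 lower genes became 1 without A001 and 1 without A150.

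Interferon response genes were lower for 28 of 40. Of these, 6 had an unadjusted p under 0.05 (7.17% over all genes) and 9 had separated libraries (9.81% over all genes). Ddx58, the RNA sensor RIG-I, stood at 23.3, 27.2 and 36.4 CPM against 74.3, 167 and 154 CPM (log2 -2.19, SE 0.51, adjusted p = 0.114). Irf1, an interferon-induced transcription factor, stood at 30.1, 23.6 and 14.8 CPM against 65.7, 75 and 65.2 CPM (log2 -1.58, adjusted p = 0.177). Single genes such as Ddx58 and Irf1 were apart in all libraries. The levels overlapped for the list as a whole (2.78 to 4.18 against 3.81 to 5.09). MHC class I genes were lower for 8 of 11, 2 of them at an unadjusted p under 0.05 (7.17% over all genes). These 2 were Nlrc5, the class I transactivator, and Psmb9, an immunoproteasome subunit. Their log2 fold changes were -1.42 and -1.21 (adjusted p = 0.259 and 0.286 by edgeR).

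Of 24 tested genes known as RUNX1 targets, 17 were higher and 7 lower. At an unadjusted p under 0.05 there were 7 higher and 2 lower (7.6% and 7.17% over all genes). Gfi1, a transcriptional repressor in granulocytes and stem cells, stood at 448, 95.8 and 299 CPM against 39.2, 20.3 and 38 CPM (log2 3.11, SE 0.74, adjusted p = 0.115 by edgeR). Itga2b, the platelet integrin CD41, stood at 4.48, 894 and 309 CPM against 13.3, 2.18 and 11.9 CPM (log2 5.47, adjusted p = 0.12), with A001 inside the knockout range. Ets1, described above, was the member with the smallest p and lay on the lower side. The lower side also held the B cell genes Ebf1 and Cd79a. Of 10 genes of the Runx family and its partners, Runx2 alone had an unadjusted p under 0.05, with 131, 481 and 105 CPM against 136, 40.2 and 82 CPM (log2 1.47, adjusted p = 0.277), and its libraries overlapped.

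Myeloid markers depended on single libraries. Neutrophil genes were higher for 16 of 22, 6 at an unadjusted p under 0.05. Ms4a3, a marker of granulocyte and monocyte progenitors, stood at 1158, 205 and 305 CPM against 94.2, 24.9 and 3.16 CPM (log2 3.77, adjusted p = 0.223). Csf3r, the G-CSF receptor, stood at 250, 76 and 163 CPM against 39.2, 79.6 and 48.7 CPM (log2 1.54, adjusted p = 0.186). Ms4a3 was higher in every double library, while Csf3r overlapped. Without A001, 1 of 22 was higher at an unadjusted p under 0.05, and without A151 there were 3. Summed neutrophil marker RNA was 14330 to 62520 CPM in the double genotype and 4329 to 12730 CPM in the knockout. It was 2613 to 29600 CPM in wildtype and 2940 to 62490 CPM in Runx1S291fsX300. The list's levels overlapped, at 7.0, 6.1 and 8.0 in the double genotype against 6.6, 6.5 and 4.9 in the knockout.

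Monocyte and macrophage genes were lower for 22 of 26, with Adgre1, the macrophage receptor F4/80, the single member at an unadjusted p under 0.05 (10.7, 8.88 and 57.7 CPM against 11.1, 285 and 220 CPM, log2 -2.74, adjusted p = 0.301). Their level was 5.11, 5.19 and 7.69 in the double genotype and 3.83, 8.52 and 8.05 in the knockout, so A051 and A047 went against their groups. Without A051 the count was 9 and without A047 it was 7. Summed macrophage marker RNA reached 16350 CPM in A150 and 12970 CPM in A151 but was 325 to 1580 CPM in the 6 libraries with miR-146a. Macrophage marker RNA was thus high in libraries of both genotypes without miR-146a, and A051 of the double genotype held 10780 CPM of it.

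Megakaryocyte and platelet genes were higher for 17 of 18 members, 11 at an unadjusted p under 0.05, and the median log2 fold change was 3.11. Gp1ba, the platelet receptor for von Willebrand factor, stood at 3.1, 87.2 and 199 CPM against 2.53, 0.968 and 3.65 CPM (log2 5.32, adjusted p = 0.156). Nfe2, a transcription factor of platelet release, stood at 62, 123 and 73.5 CPM against 7.9, 28.8 and 24.3 CPM (log2 2.08, adjusted p = 0.142). The list's level was 6.36 in A031 and 6.21 in A051 but 1.22 in A001, below the knockout's 2.10 to 3.05. Wildtype libraries had 3.50 to 5.92. Only 2 members had separated libraries, so the group is not higher in every double library. The count of 11 was 7 without A031, 7 without A150 and 2 with limma-voom.

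Erythroid genes showed the same division. They were higher for 18 of 21, though 2 at an unadjusted p under 0.05 is near the 7.6% of all genes. Their level was 5.38 in A031 and 5.25 in A051 but 0.08 in A001, against 0.90, 4.64 and 3.42 in the knockout. Fech, the last enzyme of haem synthesis, stood at 41, 62.7 and 48.7 CPM against 3.79, 16.5 and 20.7 CPM (log2 1.89, adjusted p = 0.209). The list's median log2 fold change of 1.43 was 0.24 with limma-voom, with 12 of 21 higher, and 0.68 without A051, with 14 of 21 higher. Mast cell and basophil genes were higher for 5 of 6, and Cpa3, a mast cell protease, stood at 348 CPM in A031 but 9.3 and 3.88 CPM in A001 and A051. Without A031 the mast cell list's median log2 fold change was 0.33 in place of 2.36.

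Stem cell genes divided into 16 higher and 13 lower. At an unadjusted p under 0.05 there were 6 higher and 1 lower (7.6% and 7.17% over all genes). Myb, a transcription factor of progenitor growth, stood at 1164, 810 and 998 CPM against 539, 138 and 215 CPM (log2 1.74, adjusted p = 0.162). Vwf, von Willebrand factor, stood at 1.03, 66.6 and 93.1 CPM against 7.59, 1.45 and 1.95 CPM (log2 3.89, adjusted p = 0.22). Tek, the angiopoietin receptor of quiescent stem cells, stood at 66.3 CPM in A031 and at 0.345 and 2.18 CPM in A001 and A051. The direction of this list rests on A031: without it 10 of 29 were higher, 8 were lower at an unadjusted p under 0.05, and the median log2 fold change was -1.35 in place of 0.62. The 6 on the higher side became 3 without A047, 2 without A151 and 1 with limma-voom, whose median was -0.15. The levels were 1.95, 5.51 and 2.77 in the double genotype, 3.01 to 4.38 in the knockout and 5.58 to 7.51 in wildtype. Hox, Meis and Pbx genes were higher for 11 of 15 and turned with A031 too, to a median of -0.26 without it.

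**Figure D5:**
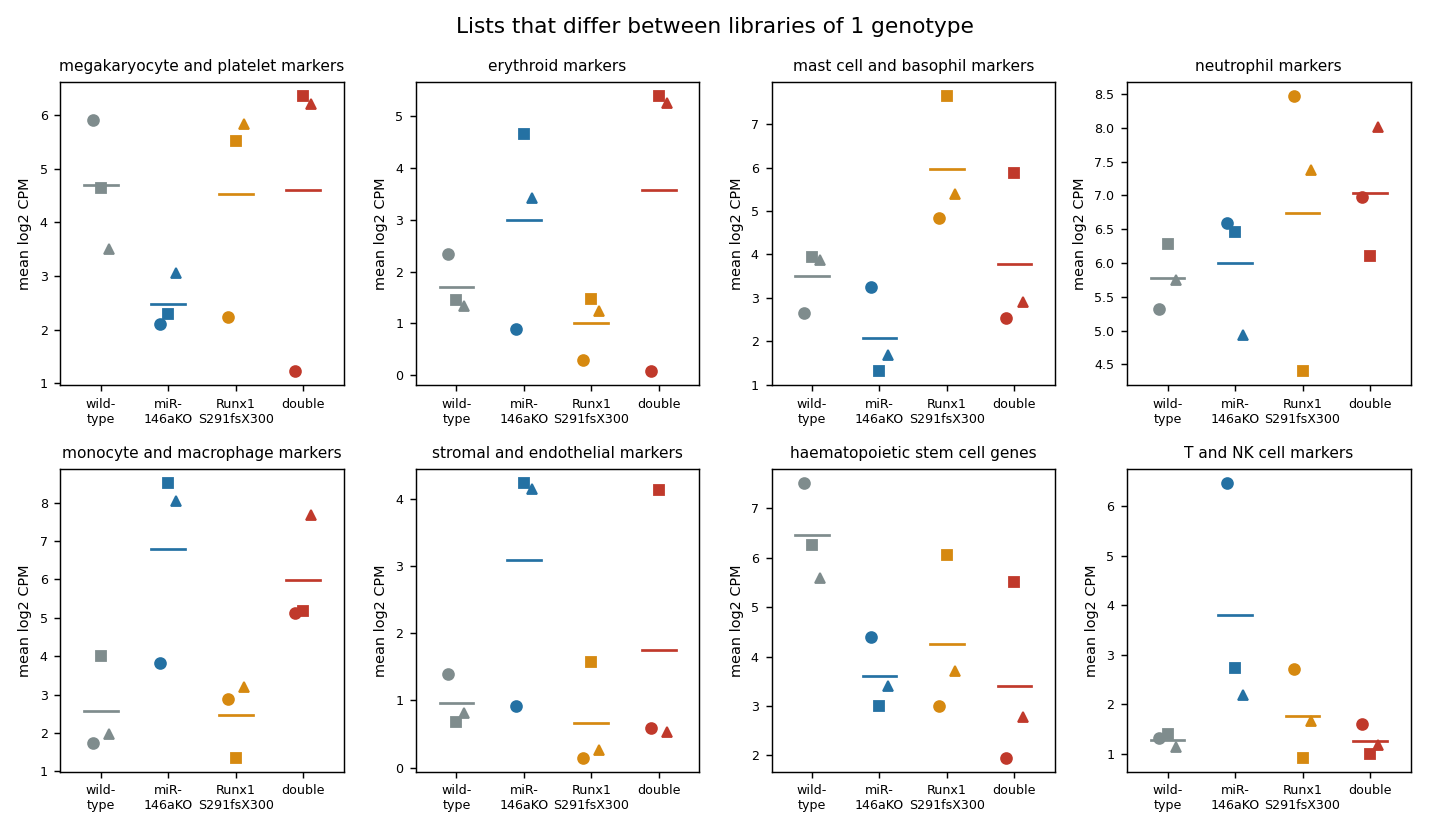
List level (mean log2 CPM, y axis) in each of the 12 libraries by genotype (x axis), with a line at each genotype's mean, for lists that vary within genotypes. A001 lies far from A031 and A051 for megakaryocyte and erythroid markers, and A047 far from A150 and A151 for macrophage and T cell markers.

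Stromal and endothelial genes, which a blood cell sort should not hold, had levels of 4.14 in A031, 4.24 in A150 and 4.14 in A151 and of 0.52 to 0.91 in the other 3 libraries. Cxcl12, the chemokine of marrow stroma, stood at 0.345, 468 and 0 CPM in the double genotype against 0.632, 158 and 346 CPM in the knockout. Of 13 such genes, none had an unadjusted p under 0.05. Of 23 immediate early genes, 16 were lower. At an unadjusted p under 0.05, 2 were lower, near the 7.17% of all genes, and 1 (Myc) was higher. The 2 lower were Ier5 (46.3, 59.5 and 40 CPM against 221, 371 and 279 CPM, adjusted p = 0.185 by edgeR) and Egr3 (adjusted p = 0.223). The p53 target genes divided evenly, 10 higher and 10 lower. Perp, a membrane effector of p53, held no count in the knockout and stood at 1.72, 7.28 and 0 CPM in the double genotype.

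Across all genes, 3 passed the interaction test (0.0235%), which asks whether the mutation's effect differs without and with miR-146a. They were Cd2 and, named after their values were seen, Dok3, an adaptor that dampens immune receptor signals, and Hvcn1, the voltage-gated proton channel of phagocytes and B cells. Dok3 averaged 25.9 ± 6.37 CPM in the double genotype and 83.6 ± 14.8 CPM in the knockout (SD, n = 3), with an interaction of -6.08 (adjusted p = 0.0257 by edgeR). Hvcn1 averaged 57.9 ± 21.9 CPM and 208 ± 59.3 CPM, with an interaction of -4.07 (adjusted p = 0.0457 by edgeR). Both interactions also take in the difference between Runx1S291fsX300 and wildtype, whose levels are not given here for these genes. They are therefore not the drop from knockout to double genotype alone. Neither Dok3 nor Hvcn1 passed in the comparison of the double genotype with the knockout (adjusted p = 0.185 and 0.114). For Bora, Blm, Cenpf, Aspm, Foxm1, Gas2l3 and Mcm10 the interactions were 2.12 to 2.99 and did not pass (adjusted p of 0.17 or more). Those of the list members Cenpe, Pole and Gmnn were 1.98, 1.57 and 0.90 and did not pass either. The interaction uses the same 6 libraries as the main comparison, and so is not independent of it.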

How the data were processed

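The deposited table holds raw counts of reads per gene symbol for 24421 symbols, of which 5211 have no count, with no column left unused. Per the submitters' processing notes the authors used FastQC 0.11.2, HISAT2 2.0.4, featureCounts 1.5.2 and mm10. No source used here gives the strand setting, how multiply mapped reads were treated, or the annotation release. The genotype of each column comes from a second deposited table.

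Counts were tested with edgeR 4.0.16 (R 4.3.3): TMM scaling, its default low-count filter (12744 genes kept), 1 quasi-likelihood fit over 12 libraries, and Benjamini-Hochberg adjustment over all genes (called under 0.05). The common biological coefficient of variation was 0.809. Alternatives used DESeq2 1.42.0, limma 3.58.1, other scalings and filters, and left out each library in turn. The code was tested on simulated data whose spread was smaller than that of these libraries, so recovery at their spread was not tested. A list level is the mean log2 CPM of members with a prior count of 2. Intervals are exact at 95% and floors are 3 counts. GENCODE coordinates on mm10 matched 95.7% of symbols.

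Named genes were all called genes. To them were added up to 10 per direction of smallest p with separated libraries, mean log2 CPM of at least 2 and no predicted-model name. Each list gave up to 3 members of smallest p under 0.05, or 2 of highest level. Runx1, Mir146, Traf6, Irak1, Irak2, Kit, Ly6a, Ddx3y and Xist were always kept. Members and lists were chosen with earlier results of these data known. Other genes printed inside lists were chosen after their values were seen. One gene named by this rule is not reported here.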

Additional observations from a re-analysis of the deposited data

Results flagged for a closer look

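The effect of the Runx1 mutation on Cd2 differed between cells without and with miR-146a, by a test of the difference itself in edgeR's quasi-likelihood fit (log2 interaction -13.41, adjusted p = 0.00202). All 3 double libraries lay below all 3 knockout libraries, while Runx1S291fsX300 averaged 2.07 ± 1.62 CPM and wildtype 0.0475 ± 0.0822 CPM (SD, n = 3). No group of 4 or more libraries existed in which a single library could be set against the rest.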

How the results depend on the processing

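No paired analysis was possible because the columns of the count table carry no replicate numbers. The count of called genes, 2 (0 higher and 2 lower), was 787 (324 higher, 463 lower) with DESeq2 and 549 (256 higher, 293 lower) with no count filter. It was 13 (4 higher, 9 lower) with DESeq2's size factors in edgeR, 11 (4 higher, 7 lower) without Rn45s, 9 (4 higher, 5 lower) with a CPM of at least 5 in 3 libraries, 12 (all lower) with limma-voom, and 4 (all lower) with the 6 libraries only. Leaving out each library in turn gave 0 to 7 calls, all lower: 0 without A001 and 7 without A051. Genes lower at an unadjusted p under 0.05 numbered 1463 with DESeq2, which was run on 19210 genes, against 914 of the 12744 in the main fit. The cause was not tested. Cd2 was called in 14 and Ext2 in 13 of 15 alternatives, with adjusted p-values of 2.34e-13 to 0.10 and 3.02e-13 to 0.10. The fit kept genes by a count minimum, so genes with few counts are compared with low precision at 3 libraries each.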
